A study of Mus musculus with 3 samples.

Results

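A pair of heart fibroblast RNA libraries was set side by side, the one labelled αSMA+ fibroblasts of the infarcted heart and the one labelled fibroblasts of the uninjured heart, out of 3 libraries in the series. The libraries were taken by their labels. Both came from 12-week-old mice of the C57/BL6 background and from enzyme digestion of the heart with Liberase TH. The αSMA-labelled library is RNA of GFP+ cells sorted 10 days after myocardial infarction from aSMA-GFP transgenic mice, in which the promoter of smooth muscle α-actin drives GFP, so that smooth muscle cells and pericytes can carry the reporter too. By the study's methods these cells were sorted on GFP and viability alone, without the exclusion of CD45+ and CD31+ cells that was used for the FSP1-GFP sort. By the treatment protocol and the study's methods, the uninjured-labelled library is RNA of WT cells that adhered to a dish over 4 hours, with no reporter gate. The extract protocol in the labels instead says that all cells were sorted. By the study's description each sort pooled several injured hearts, while the number of hearts behind the uninjured-labelled library is not given in the sources used here. Injury, transgene and, by the methods, handling (sorting or plating) therefore differ together between the libraries and cannot be told apart. Each group is 1 library, and there is no replicate error, so sizes are described and none was tested.

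The adult heart holds quiescent fibroblasts that maintain the interstitial matrix. After an infarct they proliferate, and many take up smooth muscle α-actin and become myofibroblasts, which contract the scar and secrete fibrillar collagen, periostin and crosslinking enzymes under the influence of transforming growth factor β. Fibroblasts exposed to tissue injury, interleukin 1 or tumor necrosis factor instead take on an inflammatory state, in which nuclear factor κB and AP-1 drive chemokines, interleukin 6 and cyclooxygenase 2. Once the scar is formed, matrifibrocytes express cartilage-like matrix genes such as Comp, Cilp2 and Chad.

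The table that pairs the libraries holds 31930 entries, and 17202 had at least 1 FPKM (fragments scaled to transcript length and library size) in either library. Of the measured entries, 11563 could be given a gene symbol by their position. The log2 ratio of FPKM + 1, αSMA-labelled over uninjured-labelled, was at least 1 in 2923 entries (17.0%) and at most -1 in 1223 entries (7.11%), with a median of 0.05. Here "higher" and "lower" mean past this 2-fold bound, and in each pair of values below the αSMA-labelled library comes first. The split depends on level, since among named protein coding entries with 1 to 5 FPKM in the higher library 4.12% were higher and 4.25% lower, while from 500 FPKM upward 48.3% were higher and 8.62% lower. It also depends on scale: summed FPKM was 860322 against 556020, and after rescaling each library to the same total (TPM), which moves the ratio of an abundant entry down by 0.63, 1744 entries were higher and 3884 lower. Over all entries measured, 267 were at least 16-fold higher and 161 at least 16-fold lower. Among these were 69 named protein coding entries at least 16-fold higher and 3 at least 16-fold lower, all without a small RNA gene inside. In single-exon genes the lowest values lay near 0.114 and 0.110 FPKM for a 1 kb transcript, taken here as the worth of 1 read. This estimate was similar in both libraries, the read numbers themselves are not in the tables, and values below 1 FPKM rest on few reads. In bulk RNA, fewer cells of a type and less RNA per cell cannot be told apart.

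**Figure D1:**
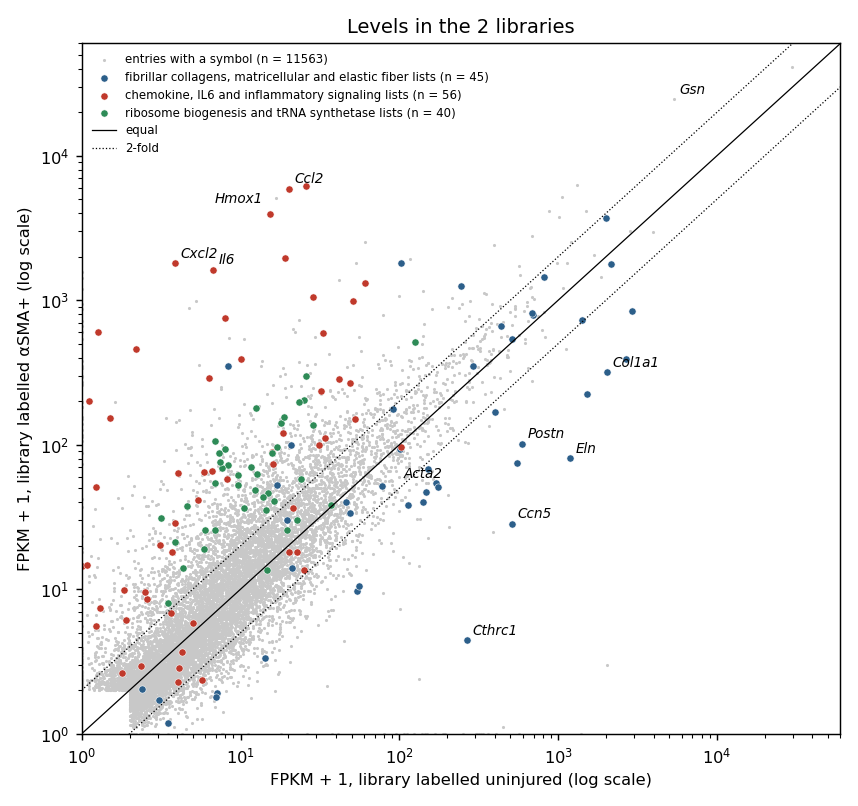
Each point is 1 entry with a symbol, with its FPKM + 1 in the uninjured-labelled library across and in the αSMA-labelled library upward, both on log scales. The solid line marks equal levels and the dotted lines 2-fold. Red points, the chemokine, IL6 and inflammatory lists, lie far above the line, while blue points, the matrix lists, hold Cthrc1, Ccn5, Eln, Postn and Col1a1 below it.

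The genes that name the sorted populations did not separate the libraries. Acta2, which encodes smooth muscle α-actin itself, was at 77.1 FPKM in the αSMA-labelled library and at 95.4 FPKM in the uninjured-labelled library, a log2 ratio of -0.30. The αSMA-labelled library was thus not the one with more Acta2 RNA, although its cells were sorted on a reporter of that promoter. S100a4, which encodes FSP1, was at 14.2 against 9.94 FPKM (log2 ratio 0.47), and of the 10 measured S100 genes 3 were higher (S100a8, S100a9 and S100a10). Genes that mark activated fibroblasts did not all move one way. Of 18 measured matricellular and activation genes 11 were lower and 3 higher (Loxl2, Thbs1 and Ccn1, log2 ratios 5.39, 4.13 and 2.35). Among the lower genes were Cthrc1, a secreted glycoprotein of scar fibroblasts, at 3.45 against 264 FPKM (log2 ratio -5.90), and Postn, which encodes periostin, at 101 against 593 FPKM (log2 ratio -2.55). The values of Acta2, Cthrc1 and Postn go against the label names. The sample titles and descriptions carry different internal numbers, and the names are therefore used only as labels. Whether these libraries were exchanged with each other, or either of them with the third library, was not tested. If they were exchanged with each other, the direction of every ratio given here would be turned. In a separately scaled table the third library, labelled FSP1, had log2 ratios over the uninjured-labelled library of 1.54 for Acta2, 2.26 for Myh11, 2.07 for Myl9 and 1.58 for Cnn1. The ratio of Myh10 there was -0.41.

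Secreted inflammatory mediators were prominent among the highest ratios and matrix proteins among the lowest. The ranking took 4459 named protein coding genes with at least 1 FPKM in both libraries, 10 FPKM in either and no small RNA gene inside. The 15 highest log2 ratios belonged to 6 chemokines (Cxcl2, Ccl2, Ccl7, Cxcl1, Cxcl5 and Ccl4), the cytokines Il6 and Lif, the heme oxygenase Hmox1, the hyaluronan genes Has1 and Tnfaip6, the cyclooxygenase Ptgs2, the transcription factor Myc, the urokinase receptor Plaur and the sulfiredoxin Srxn1. They ran from 5.51 for Ccl4 to 8.87 for Cxcl2. The 15 lowest ran from -5.90 for Cthrc1 to -2.70 for Tacc3. Of these, Cthrc1, Ccn5, Eln, Col8a2, Comp and Col1a2 encode secreted proteins of the extracellular matrix or proteins bound to it. The others were C1qtnf3 of the C1q and TNF-related family, Ddah1, which degrades methylarginines that inhibit nitric oxide synthase, the linker histone gene H1f0, Pigyl of the GPI anchor pathway, Rbck1 of the linear ubiquitin ligase, the growth arrest gene Gas1, the WNT receptor Fzd2, the elongation factor gene Tcea3 and the spindle gene Tacc3.

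**Figure D2:**
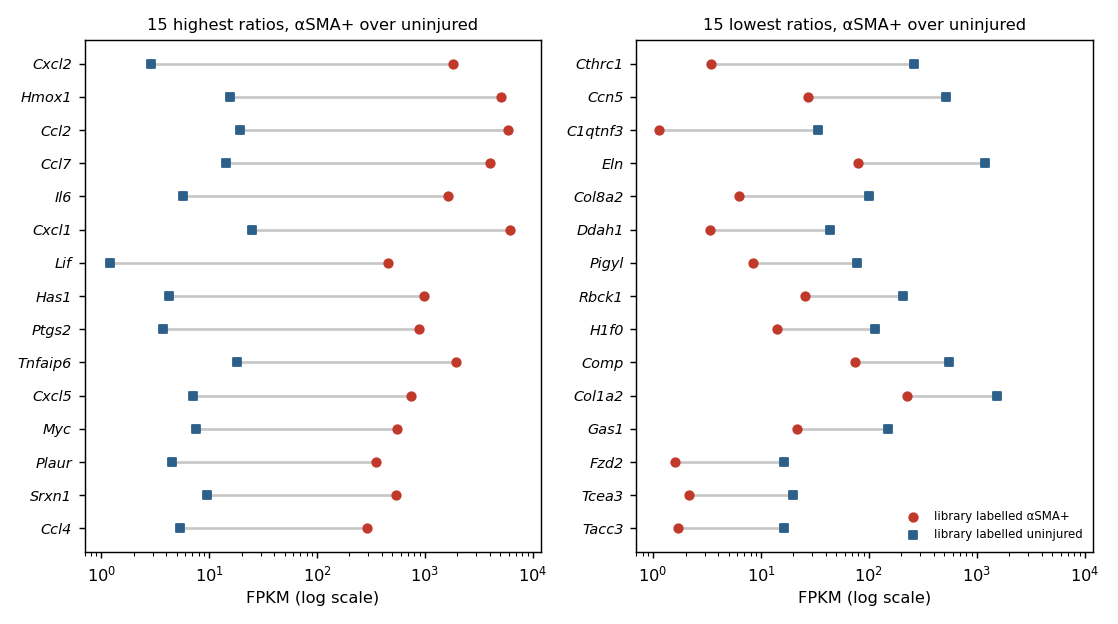
FPKM on a log scale in the αSMA-labelled library (red circles) and the uninjured-labelled library (blue squares) for the 15 highest and 15 lowest log2 ratios. The genes at the left lie between 1.21 and 24.8 FPKM in the uninjured-labelled library and between 288 and 6165 FPKM in the αSMA-labelled library, and those at the right are shifted the other way, down to a log2 ratio of -5.90 for Cthrc1.

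Neutrophil-attracting CXC chemokines and colony-stimulating factors were among the genes with the highest ratios. Cxcl1 was at 6165 FPKM in the αSMA-labelled library, the fourth most abundant entry with a symbol there, and at 24.8 FPKM in the uninjured-labelled library, a log2 ratio of 7.90. Cxcl2 was at 1804 against 2.87 FPKM (log2 ratio 8.87), and Cxcl5 at 751 against 7.04 FPKM (log2 ratio 6.55). Cxcl3 was at 199.6 FPKM and in the uninjured-labelled library at 0.104 FPKM, about the worth of 1 read. All these genes encode ligands of the receptor CXCR2. They lie together on chromosome 5 between positions 90759298 and 90905938 (GRCm38), where 3 more genes, named for their position after their values were seen, lie. The platelet chemokine genes Ppbp and Pf4 were higher too, at 15.3 against 0.272 FPKM (log2 ratio 3.68) and 241 against 6.52 FPKM (log2 ratio 5.01), and Cxcl15 was below 1 FPKM in both libraries, at 0.602 and 0.736 FPKM. Csf2, the gene of the granulocyte and macrophage growth factor GM-CSF, was at 601 against 0.258 FPKM (log2 ratio 8.90), Csf1, whose product maintains macrophages, at 1052 against 27.7 FPKM (log2 ratio 5.20), and Csf3, the gene of G-CSF, at 13.5 FPKM and listed at 0 in the uninjured-labelled library. Cxcl12, the ligand of CXCR4 that stromal cells make constitutively, was at 95.4 against 102 FPKM (log2 ratio -0.09). In all, 8 of 14 measured genes of this list were higher and 0 lower, with a median log2 ratio of 3.15 against 0.05 over all entries measured. Csf2, Csf3 and Cxcl3 passed the filter only through the library where they are high, and with at least 1 FPKM required in both libraries the median was 1.61.

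Monocyte-attracting CC chemokines followed the same pattern. Ccl2, whose product recruits CCR2+ monocytes, was at 5924 FPKM against 19.3 FPKM, a log2 ratio of 8.19. Its neighbor Ccl7 was at 3981 against 14.3 FPKM (log2 ratio 8.02), and the other genes of the cluster on chromosome 11 between positions 82035577 and 82116799, Ccl11 (eotaxin), Ccl12 and Ccl8, were at 40.3 against 4.39 FPKM (log2 ratio 2.94), 8.92 against 0.846 FPKM (log2 ratio 2.43) and 56.8 against 7.18 FPKM (log2 ratio 2.82). Ccl2 and Ccl7 thus stood far above their neighbors in FPKM in the αSMA-labelled library. Farther along the chromosome, the macrophage inflammatory protein genes Ccl3 and Ccl4 were at 152 against 0.499 FPKM (log2 ratio 6.67) and 288 against 5.34 FPKM (log2 ratio 5.51), and Ccl5 was at 63.1 against 3.06 FPKM (log2 ratio 3.98). The receptors were low: Ccr1 was at 8.54 against 1.51 FPKM (log2 ratio 1.92) and Ccr2 at 2.67 against 3.28 FPKM (log2 ratio -0.22). Cx3cl1, the membrane-bound chemokine fractalkine, was at 12.5 against 24.3 FPKM (log2 ratio -0.90). Of 16 measured genes of the CC and CX3C list 11 were higher and 0 lower, with a median of 2.62 (TPM 11 higher and 3 lower). Ccl3 and Ccl12 passed the filter only through the library where they are high. Macrophage and monocyte markers, which can themselves come with Ccl3, Ccl4 and Pf4, moved in the same direction. Of 21 measured markers 18 were higher (TPM 13 higher and 1 lower), with a summed level of 3497 FPKM against 704 FPKM. The part of macrophages and monocytes in the chemokine values was not tested.

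The sequences before the start sites of these genes are shown because the chemokine, cytokine and stress genes at the top of the ranking are textbook targets of NF-κB and AP-1. The 250 bases before the RefSeq start (GRCm38.p6) were searched on both strands, in 9 of the 15 highest and 9 of the 15 lowest genes. The AP-1 motif TGANTCA was found in 5 of the 9 highest genes (Il6, Lif, Tnfaip6, Plaur and Srxn1), in 0 of the 9 lowest and in 6.87% of 27025 promoters. The NF-κB consensus was found in 3 of the highest (Cxcl1, Cxcl2 and Il6), in 2 of the lowest (H1f0 and Tcea3) and in 3.75% of all promoters. The cyclic AMP response element TGACGTCA was found in Has1 alone among the 18 and in 1.62% of all. The antioxidant response motif TGACNNNGC was in Lif alone (10.1% of all), the hypoxia response motif ACGTG in Cxcl1 and Col1a2 (16.6% of all, a motif that the E-box CACGTG contains), the TATA box TATAAA, read on the gene's strand only, in C1qtnf3 (8.12% of all), and neither the E-box (6.05% of all) nor the CArG box of serum response factor (1.40% of all) was in any. A match is a description of letters, and with 9 genes a side the counts are small. In the lines that follow, capitals mark the NF-κB consensus in Cxcl1 and Cxcl2, both motifs in Il6 and the AP-1 motif in the others, each read from 5′ to 3′ on the plus strand, which is the strand of all these genes.
Cxcl1 promoter, chr5:90891125-90891244: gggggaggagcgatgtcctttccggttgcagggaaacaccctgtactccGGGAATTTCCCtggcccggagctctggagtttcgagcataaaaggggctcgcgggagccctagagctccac
Cxcl2 promoter, chr5:90903779-90903898: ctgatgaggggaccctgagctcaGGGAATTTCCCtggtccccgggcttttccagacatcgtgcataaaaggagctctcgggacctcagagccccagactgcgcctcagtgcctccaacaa
Il6 promoter, chr5:30012864-30013113: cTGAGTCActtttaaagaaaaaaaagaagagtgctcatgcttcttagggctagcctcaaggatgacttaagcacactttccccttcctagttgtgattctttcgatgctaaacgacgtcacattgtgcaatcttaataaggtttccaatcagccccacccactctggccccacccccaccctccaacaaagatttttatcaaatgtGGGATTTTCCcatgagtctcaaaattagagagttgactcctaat
Lif promoter, chr11:4257318-4257417: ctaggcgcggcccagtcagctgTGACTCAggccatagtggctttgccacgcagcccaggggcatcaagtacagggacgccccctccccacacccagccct
Tnfaip6 promoter, chr2:52037933-52038032: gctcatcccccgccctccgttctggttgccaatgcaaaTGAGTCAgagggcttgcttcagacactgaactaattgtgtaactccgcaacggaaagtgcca
Plaur promoter, chr7:24462363-24462462: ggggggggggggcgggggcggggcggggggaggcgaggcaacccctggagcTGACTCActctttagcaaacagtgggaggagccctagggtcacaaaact
Srxn1 promoter, chr2:152105404-152105503: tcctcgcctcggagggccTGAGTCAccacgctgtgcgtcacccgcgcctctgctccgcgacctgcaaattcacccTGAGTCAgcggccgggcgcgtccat
The NF-κB stretch of Cxcl1, from -71 to -61 relative to the start, and that of Cxcl2, from -97 to -87, match the consensus on both strands, and Srxn1 holds the AP-1 motif at 2 places.

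Interleukin 6 cytokines and their signal chain were higher from ligand to target. Il6 was at 1632 against 5.75 FPKM (log2 ratio 7.92), Lif, the gene of leukemia inhibitory factor, at 459 against 1.21 FPKM (log2 ratio 7.70), Clcf1 at 19.1 against 2.10 FPKM (log2 ratio 2.69) and Osm, the gene of oncostatin M, at 6.41 against 0.297 FPKM (log2 ratio 2.51). Of the receptors, the shared signaling chain Il6st (gp130) was at 151 against 51.4 FPKM (log2 ratio 1.53), Osmr at 88.7 against 14.9 FPKM (log2 ratio 2.50) and Il6ra at 7.60 against 1.59 FPKM (log2 ratio 1.73). The transcription factor Stat3 and its feedback target Socs3 were at 284 against 40.8 FPKM (log2 ratio 2.77) and 235 against 31.2 FPKM (log2 ratio 2.87). Cardiotrophin 1 was the exception, with Ctf1 at 1.35 against 4.70 FPKM (log2 ratio -1.28). Of 10 measured genes 9 were higher and 1 lower (median 2.60), and Osm passed the filter only through the library where it is high.

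Genes of the NF-κB response were higher with few exceptions. Inhibitors that NF-κB itself induces stood out, since Nfkbia (IκBα) was at 991 against 50.4 FPKM (log2 ratio 4.27), Tnfaip3 (A20) at 63.8 against 4.89 FPKM (log2 ratio 3.46) and Nfkbiz (IκBζ) at 388 against 9.09 FPKM (log2 ratio 5.27). The ratios of the subunit genes were smaller, with Relb at 73.0 against 15.1 FPKM (log2 ratio 2.20), Rel at 17.1 against 2.68 FPKM (log2 ratio 2.29) and Nfkb1 at 99.3 against 30.4 FPKM (log2 ratio 1.68). The leukocyte adhesion molecules Vcam1 and Icam1 were at 1313 against 59.8 FPKM (log2 ratio 4.43) and 594 against 32.3 FPKM (log2 ratio 4.16). Tnf was at 13.8 FPKM, with 0.0761 FPKM in the uninjured-labelled library, about the worth of 1 read. The receptor genes Tlr2 and Il1r1 were at 64.3 against 5.62 FPKM (log2 ratio 3.30) and 119 against 17.4 FPKM (log2 ratio 2.71), the interleukin 1 antagonist Il1rn at 49.7 against 0.222 FPKM (log2 ratio 5.38) and Il10 at 4.52 against 0.227 FPKM (log2 ratio 2.17). The alarmin Il33 was at 110.0 against 32.8 FPKM (log2 ratio 1.71) and its receptor Il1rl1, at 1.94 against 1.37 FPKM (log2 ratio 0.31), was the measured member that was not higher. The counts were 15 higher and 0 lower of 16, with a median of 3.38. Tnf, Il1rn and Il10 passed the filter only through the αSMA-labelled library, so they could not count as lower. Il1b shares its locus with a second entry, and the more abundant of them was at 30.8 against 5.81 FPKM (log2 ratio 2.22).

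**Figure D3:**
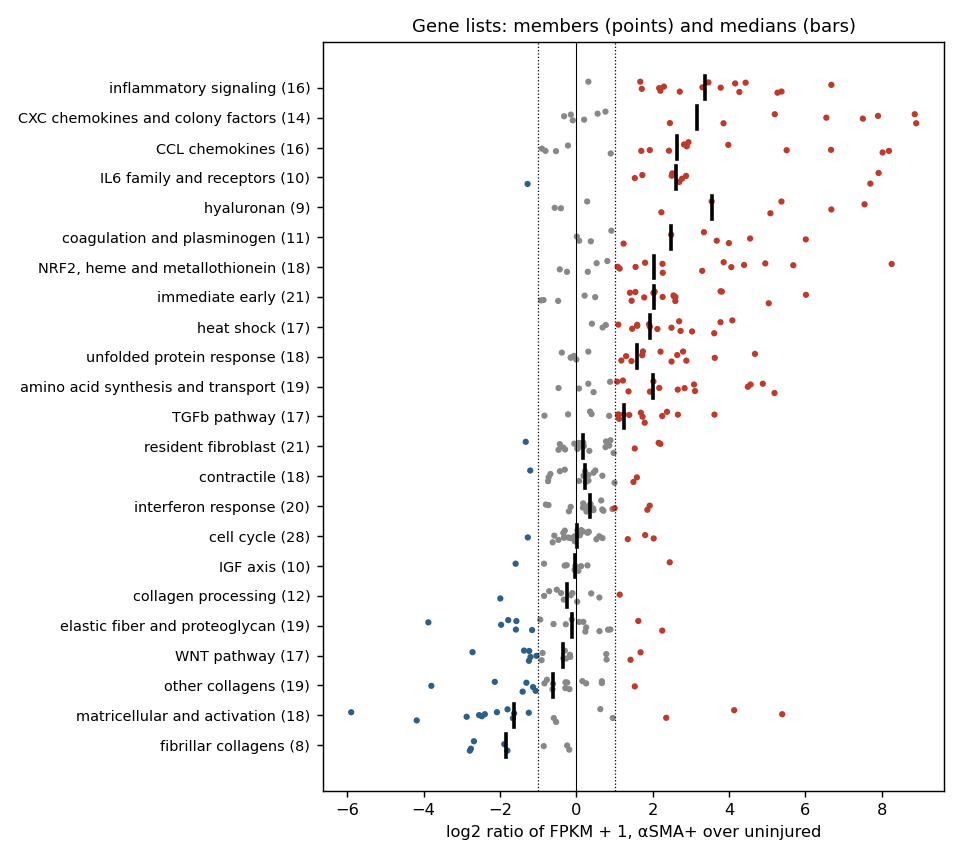
Log2 ratios of FPKM + 1, αSMA-labelled over uninjured-labelled, for the measured members of 23 lists (number in brackets). Points are genes, red at least 2-fold higher and blue at least 2-fold lower, and black bars are medians, which run from 3.54 for hyaluronan to -1.85 for fibrillar collagens.

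Genes for the synthesis of hyaluronan, a polysaccharide of the provisional wound matrix, were higher at nearly every step. Its sugar precursors are made by Gfpt2, at 2514 against 59.7 FPKM (log2 ratio 5.37), Uap1, at 422 against 35.2 FPKM (log2 ratio 3.54), and Ugdh, the UDP-glucose dehydrogenase, at 1817 against 52.6 FPKM (log2 ratio 5.08). Has1, a hyaluronan synthase of the plasma membrane, was at 981 against 4.24 FPKM (log2 ratio 7.55). Has2 shares its locus among 2 entries, and the more abundant was at 95.6 against 2.39 FPKM (log2 ratio 4.83). Has3 stayed below 1 FPKM in both, at 0.108 and 0.0523 FPKM. Tnfaip6, whose product TSG-6 links heavy chains of inter-α-inhibitor to hyaluronan, was at 1947 against 17.99 FPKM (log2 ratio 6.68), and the hyaluronan receptor Cd44 at 61.7 against 12.4 FPKM (log2 ratio 2.23). The isoenzyme gene Gfpt1, at 6.83 against 5.43 FPKM (log2 ratio 0.28), and the hyaluronan-degrading Cemip, at 3.35 against 4.75 FPKM (log2 ratio -0.40), did not pass the bound. Of 9 measured genes 6 were higher and 0 lower (median 3.54).

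In prostaglandin synthesis one enzyme dominated. Ptgs2, the inducible cyclooxygenase, was at 881 against 3.75 FPKM (log2 ratio 7.54), while the constitutive Ptgs1 was at 9.24 against 4.64 FPKM (log2 ratio 0.86). Pla2g4a, which releases arachidonic acid, was at 34.4 against 16.6 FPKM (log2 ratio 1.01), Ptges3 at 144 against 46.3 FPKM (log2 ratio 1.62) and Hpgds, the hematopoietic prostaglandin D synthase, at 9.76 against 1.66 FPKM (log2 ratio 2.02). The prostacyclin receptor gene Ptgir was at 43.6 against 14.4 FPKM (log2 ratio 1.54) and the prostaglandin E2 receptor Ptger4 at 11.8 against 6.38 FPKM (log2 ratio 0.79). Of 12 measured genes 5 were higher and 0 lower, and the median was 0.83, while 17.0% of all entries measured were higher. On the TPM scale the list had 2 higher and 2 lower with a median of 0.32.

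Fibrillar collagens were lower in the αSMA-labelled library. Col1a1, which with Col1a2 makes type I collagen of the scar, was at 316 FPKM against 2037 FPKM, a log2 ratio of -2.68, and Col1a2 was at 225 against 1529 FPKM (log2 ratio -2.76). Col3a1 was at 389 against 2694 FPKM (log2 ratio -2.79), with a small RNA gene inside its entry that can affect the value. Type I and III chains thus differed by nearly the same factor, between 6.43 and 6.92 fold on the FPKM + 1 scale. Type V collagen, which nucleates the fibrils, was lower in Col5a1, at 39.4 against 140.3 FPKM (log2 ratio -1.81), but Col5a3, at 39.4 against 45.0 FPKM (log2 ratio -0.19), was close to equal. Of 8 measured fibrillar collagens 0 were higher and 5 lower, with a median of -1.85. Network and filament collagens varied widely. The short-chain Col8a2 and Col8a1 were at 6.24 against 99.8 FPKM (log2 ratio -3.80) and 101 against 271 FPKM (log2 ratio -1.41), and Col16a1, a fibril-associated collagen, at 29.6 against 133 FPKM (log2 ratio -2.14). The basement membrane chains Col4a1 and Col4a2, which assemble together, lay on opposite sides of 0, at 397 against 249 FPKM (log2 ratio 0.67) and 115 against 178 FPKM (log2 ratio -0.63), and the type VI chains Col6a1, Col6a2 and Col6a3 were at 403 against 476 FPKM (log2 ratio -0.24), 225 against 343 FPKM (log2 ratio -0.61) and 27.8 against 59.2 FPKM (log2 ratio -1.07). Of 19 measured other collagens 1 was higher (Col6a6, at 8.66 against 2.34 FPKM (log2 ratio 1.53)) and 6 were lower, with a median of -0.61 (TPM 1 higher and 10 lower).

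Most collagen-modifying enzymes lay within 2-fold on the deposited scale. Of 12 measured genes, P4ha1, a prolyl hydroxylase subunit that hypoxia induces, was higher at 116 against 52.4 FPKM (log2 ratio 1.14), P4ha3 was lower at 5.58 against 25.2 FPKM (log2 ratio -1.99), and the other 10 lay within 2-fold. On the TPM scale the list had 0 higher and 5 lower with a median of -0.78. P4hb, the shared β subunit, was at 828 against 816 FPKM (log2 ratio 0.02), Pcolce, an enhancer of the C-proteinase, at 448 against 482 FPKM (log2 ratio -0.10), and Bmp1, that proteinase, at 79.9 against 114 FPKM (log2 ratio -0.51). The more abundant entry of the collagen chaperone gene Serpinh1 was at 602 against 703 FPKM (log2 ratio -0.22).

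Matricellular genes divided. Most were lower: Ccn5, a member of the CCN family that lacks the C-terminal knot domain, was at 27.4 against 515 FPKM (log2 ratio -4.18), Ccn4 at 8.67 against 52.8 FPKM (log2 ratio -2.48), Sparc, the collagen-binding osteonectin gene, at 839 against 2931 FPKM (log2 ratio -1.80), and the lysyl oxidase gene Loxl1, which crosslinks elastin, at 46.5 against 146 FPKM (log2 ratio -1.63). The cartilage-like genes of late scars were among them, with Comp at 74.0 against 549 FPKM (log2 ratio -2.87), Cilp2 at 2.36 against 13.2 FPKM (log2 ratio -2.08), Cilp at 169 against 402 FPKM (log2 ratio -1.25) and Fmod (fibromodulin) at 53.2 against 170.4 FPKM (log2 ratio -1.66). Against these, Thbs1, which can activate latent TGFβ, was at 1796 against 101 FPKM (log2 ratio 4.13), Ccn1 at 1252 against 244 FPKM (log2 ratio 2.35), and Loxl2, with a small RNA gene inside its entry, at 351 against 7.38 FPKM (log2 ratio 5.39). Thrombospondin genes thus pointed in different directions, since Thbs2 was at 176 against 90.4 FPKM (log2 ratio 0.95), Thbs3 at 32.7 against 47.7 FPKM (log2 ratio -0.53) and Thbs4 at 9.60 against 54.8 FPKM (log2 ratio -2.40). At the Ccn2 locus, whose gene is an early TGFβ and YAP target, the abundant entry was at 2827 against 1211 FPKM (log2 ratio 1.22). Spp1, which encodes osteopontin, was low at 13.04 against 20.1 FPKM (log2 ratio -0.59). The list had 3 higher and 11 lower genes of 18 measured, a median of -1.65, and a less negative mean of -0.91. At the Fn1 locus, which encodes fibronectin, the more abundant entry was at 87.5 against 374 FPKM (log2 ratio -2.08).

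Elastic fibers showed a strong difference at their core. Eln, which encodes tropoelastin, was at 79.9 FPKM against 1188 FPKM, a log2 ratio of -3.88. The microfibril genes Fbn1, Mfap2 and Mfap4 were at 66.5 against 149.9 FPKM (log2 ratio -1.16), 37.0 against 113 FPKM (log2 ratio -1.58) and 729.7 against 1407 FPKM (log2 ratio -0.95), and Emilin1, an elastin-associated glycoprotein, at 49.8 against 174 FPKM (log2 ratio -1.78). Fbln5, which helps to assemble elastin, was at 92.2 against 100.4 FPKM (log2 ratio -0.12) and differed little. Small proteoglycans kept high levels in both libraries, with Dcn (decorin) at 3728 against 2009 FPKM (log2 ratio 0.89), Bgn (biglycan) at 1775 against 2150 FPKM (log2 ratio -0.28) and Lum (lumican) at 786 against 692 FPKM (log2 ratio 0.18). Higher members were Efemp1 (fibulin 3) at 51.5 against 16.1 FPKM (log2 ratio 1.62) and Ltbp1, which tethers latent TGFβ to the matrix, at 98.4 against 19.9 FPKM (log2 ratio 2.25), and 6 of 19 were lower. Ltbp2, at a shared locus, had its more abundant entry at 16.2 against 140.2 FPKM (log2 ratio -3.03).

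Matrix proteases divided, and most did not pass the bound. The higher genes were the collagenase gene Mmp13, at 26.5 against 0.181 FPKM (log2 ratio 4.54), the stromelysin gene Mmp3, at 139.7 against 34.9 FPKM (log2 ratio 1.97), and the aggrecanase genes Adamts1 and Adamts4, at 308 against 18.2 FPKM (log2 ratio 4.01) and 123 against 10.6 FPKM (log2 ratio 3.41). The constitutive fibroblast gelatinase Mmp2 and the membrane enzyme Mmp14 that activates it were at 626 against 793 FPKM (log2 ratio -0.34) and 134 against 169.6 FPKM (log2 ratio -0.33). Mmp11, Mmp23 and Adamts15 were lower, at 3.29 against 14.1 FPKM (log2 ratio -1.82), 42.2 against 93.2 FPKM (log2 ratio -1.13) and 1.44 against 10.3 FPKM (log2 ratio -2.21). That gives 4 higher and 3 lower of 16, and a median of -0.11 (TPM 4 higher and 5 lower). Mmp13 passed the filter only through the library where it is high.

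Genes of resident cardiac fibroblasts were present at similar levels in both libraries, so both hold fibroblast RNA. Pdgfra, the receptor by which cardiac fibroblasts are recognized, was at 383 FPKM and 376 FPKM, with a small RNA gene inside its entry, Vim at 1222 against 1066 FPKM (log2 ratio 0.20), Dpt (dermatopontin) at 233 against 136 FPKM (log2 ratio 0.78), Pi16 of adventitial fibroblasts at 504 against 619 FPKM (log2 ratio -0.30) and Gata4 at 21.7 against 22.6 FPKM (log2 ratio -0.05). Of 21 measured markers 17 lay within 2-fold, 3 were higher (Gsn, Pdpn and Ly6c1) and 1 was lower (Tbx20, at 13.1 against 34.3 FPKM (log2 ratio -1.33)), with a median of 0.18 that became -0.45 on the TPM scale. Gsn, the actin-severing gelsolin, was the most abundant protein coding entry with a symbol in both libraries, at 24550 against 5336 FPKM (log2 ratio 2.20). Pdpn, a membrane mucin that inflamed stroma expresses, was at 66.1 against 14.1 FPKM (log2 ratio 2.16). Ddr2, a collagen receptor of fibroblasts at a shared locus, had its abundant entry at 200.2 against 29.8 FPKM (log2 ratio 2.71).

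The contractile apparatus did not differ in one direction. Beside Acta2, the smooth muscle genes Cnn1, Myh11 and Myl9 were at 27.8 against 24.3 FPKM (log2 ratio 0.19), 36.6 against 34.8 FPKM (log2 ratio 0.07) and 105 against 142 FPKM (log2 ratio -0.43). Tpm4 and Tagln2, which are not confined to muscle, were higher at 397 against 132 FPKM (log2 ratio 1.59) and 773 against 273 FPKM (log2 ratio 1.497), and the nonmuscle myosin gene Myh10 was lower at 14.8 against 35.5 FPKM (log2 ratio -1.21). Myocd, the coactivator of smooth muscle genes, was at 2.93 against 2.16 FPKM (log2 ratio 0.32). Of 18 measured genes 15 lay within 2-fold, and the median was 0.24. On the TPM scale the list had 0 higher and 5 lower with a median of -0.39. Of 10 pericyte and smooth muscle markers 1 was higher (Steap4, at 63.9 against 24.9 FPKM (log2 ratio 1.32)) and 2 were lower, or 0 higher and 5 lower by TPM, with Rgs5 at 29.5 against 27.6 FPKM (log2 ratio 0.09), Pdgfrb at 44.3 against 87.9 FPKM (log2 ratio -0.97), Cspg4 (NG2) at 4.98 against 11.5 FPKM (log2 ratio -1.06) and Kcnj8 at 2.81 against 9.22 FPKM (log2 ratio -1.43).

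TGFβ pathway genes were higher while the collagens that this pathway induces were lower. The nuclear repressors Tgif1 and Skil, which restrain SMAD transcription, were at 254 against 19.7 FPKM (log2 ratio 3.62) and 87.6 against 13.02 FPKM (log2 ratio 2.66), and the inhibitory Smad7 at 48.7 against 8.59 FPKM (log2 ratio 2.37). The other inhibitory SMAD, Smad6, was at 25.5 against 29.8 FPKM (log2 ratio -0.22) and the type II receptor Tgfbr2 at 78.3 against 59.2 FPKM (log2 ratio 0.40). The ligand Tgfb1 and the signal transducer Smad3, named after their values were seen, were at 52.4 against 15.6 FPKM (log2 ratio 1.69) and 24.5 against 6.37 FPKM (log2 ratio 1.79). Of 17 measured genes 12 were higher and 0 lower (median 1.24), and on the TPM scale 7 higher and 1 lower with a median of 0.67. The related BMP list was mostly level, 2 of 14 being higher, namely the ligand Bmp2 at 32.5 against 4.32 FPKM (log2 ratio 2.65) and the target Id1 at 103 against 18.3 FPKM (log2 ratio 2.43).

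WNT genes differed by member, and most IGF genes differed little. Fzd2 was the lowest member of the WNT list, at 1.61 against 16.2 FPKM (log2 ratio -2.72), followed by Fzd8, at 5.21 against 15.1 FPKM (log2 ratio -1.37), and the secreted antagonists Sfrp1 and Frzb, at 47.4 against 114 FPKM (log2 ratio -1.24) and 38.003 against 90.9 FPKM (log2 ratio -1.24). Wnt11, a ligand outside the β-catenin branch, and the antagonist Wif1 were higher, at 34.2 against 9.96 FPKM (log2 ratio 1.68) and 25.2 against 8.81 FPKM (log2 ratio 1.42). The list held 2 higher and 6 lower of 17 (TPM 1 higher and 8 lower of 18), while 17.0% of all entries measured were higher and 7.11% lower. In the IGF list Igfbp3 was higher at 162 against 28.9 FPKM (log2 ratio 2.45) and Igfbp2 lower at 0.147 against 2.46 FPKM (log2 ratio -1.59), the latter near the worth of 1 read in the αSMA-labelled library, while Igf1 was at 37.9 against 30.8 FPKM (log2 ratio 0.29) and the other 7 also lay within 2-fold.

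Genes of fibrinolysis and coagulation control were mostly higher. Plaur, the urokinase receptor, was at 354 against 4.50 FPKM (log2 ratio 6.01) and its ligand Plau at 9.66 against 0.904 FPKM (log2 ratio 2.48), so that protease and receptor both stood higher. The protein C pathway was represented by Thbd (thrombomodulin) and Procr, at 372 against 22.4 FPKM (log2 ratio 4.00) and 76.7 against 2.31 FPKM (log2 ratio 4.55). F13a1, which crosslinks fibrin and is also a macrophage gene, was at 60.5 against 3.80 FPKM (log2 ratio 3.68), and the abundant entry at the locus of tissue factor, F3, was at 102 against 17.7 FPKM (log2 ratio 2.46). Serpine2 was equal, at 235 against 224 FPKM (log2 ratio 0.07). So was Serpinf1, at 570.1 against 565 FPKM (log2 ratio 0.01), a serpin gene counted in the list though not known as a regulator of coagulation or fibrinolysis. Of 11 measured genes 7 were higher and 0 lower (median 2.48), and Plau passed the filter only through the library where it is high.

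Angiogenic and epidermal growth factors included some of the larger ratios. Vegfa was at 377 against 12.7 FPKM (log2 ratio 4.78), the placental growth factor gene Pgf at 77.7 against 8.87 FPKM (log2 ratio 2.995), Fgf2 at 81.0 against 6.74 FPKM (log2 ratio 3.40), and the EGF receptor ligands Hbegf and Areg at 36.7 against 4.34 FPKM (log2 ratio 2.82) and 11.3 against 0.104 FPKM (log2 ratio 3.48). Vegfb and Vegfd were lower, at 7.44 against 19.4 FPKM (log2 ratio -1.27) and 4.18 against 12.4 FPKM (log2 ratio -1.37), so the VEGF family did not move as one. The list had 6 higher and 2 lower of 14 measured genes, beside 17.0% higher and 7.11% lower of all entries measured. Areg passed the filter only through the library where it is high. Endothelial markers were higher in the same library, 14 of 18, and their part in these values was not tested.

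Genes of heme degradation, metal binding and glutathione synthesis were higher by large factors. Hmox1, which opens the heme ring, was at 5125 FPKM against 15.7 FPKM, a log2 ratio of 8.26. The iron stores that receive the freed iron were higher too, Fth1 at 4166 against 871 FPKM (log2 ratio 2.26) and Ftl1, with a small RNA gene inside its entry, at 6322 against 1316 FPKM (log2 ratio 2.26). The metallothioneins Mt1 and Mt2, which bind zinc and copper, were at 1934 against 115 FPKM (log2 ratio 4.06) and 726 against 22.5 FPKM (log2 ratio 4.95). Both subunits of glutamate-cysteine ligase, the first enzyme of glutathione synthesis, were higher, Gclc at 136 against 5.51 FPKM (log2 ratio 4.39) and Gclm at 165 against 10.5 FPKM (log2 ratio 3.86), as was Srxn1, which repairs peroxiredoxins, at 539 against 9.52 FPKM (log2 ratio 5.68). The abundant entry of Txnrd1, the thioredoxin reductase, was at 644 against 18.2 FPKM (log2 ratio 5.07). Sod2, the mitochondrial superoxide dismutase, was at 83.2 against 7.57 FPKM (log2 ratio 3.30), but Sod1, Sod3 and Cat (catalase) were at 65.2 against 44.8 FPKM (log2 ratio 0.53), 447 against 363 FPKM (log2 ratio 0.30) and 20.7 against 28.4 FPKM (log2 ratio -0.43). Nqo1, a standard NRF2 target, did not follow, at 3.81 against 4.71 FPKM (log2 ratio -0.25). In the list 13 of 18 measured genes were higher and 0 lower (median 2.03).

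Immediate early genes, which respond within minutes to growth factors or stress, were mostly higher but not all. Myc was at 548 against 7.49 FPKM (log2 ratio 6.02), Ier3 at 1374 against 40.8 FPKM (log2 ratio 5.04), Atf3 at 132 against 8.67 FPKM (log2 ratio 3.78), Junb at 2398 against 396 FPKM (log2 ratio 2.59), Egr1 at 685 against 142 FPKM (log2 ratio 2.26) and Fosl2 at 27.8 against 6.05 FPKM (log2 ratio 2.03). Fos and Jun, the founding AP-1 genes, were at 125 against 174 FPKM (log2 ratio -0.48) and 152 against 276 FPKM (log2 ratio -0.86), and the shear-responsive Klf2 at 48.1 against 92.2 FPKM (log2 ratio -0.93), all within 2-fold on the deposited scale. AP-1 genes therefore differed by member, and the Fosl1 locus had entries at 109 against 3.23 FPKM (log2 ratio 4.69) and 88.1 against 0.183 FPKM (log2 ratio 6.23). Of 21 measured genes 16 were higher and 0 lower (median 2.03). On the TPM scale the list had 13 higher and 3 lower with a median of 1.44. Enzyme digestion, sorting and plating are known to induce these genes. By the study's methods the libraries differ in sorting and plating, and the part of handling cannot be told apart from that of injury.

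Chaperones of the cytosol and of mitochondria were higher. In the cytosol Hsph1 was at 299 against 16.7 FPKM (log2 ratio 4.09), Hsp90aa1 at 278 against 41.0 FPKM (log2 ratio 2.73), the small heat shock gene Hspb1 at 1154 against 140.3 FPKM (log2 ratio 3.03), and the inducible Hspa1a and Hspa1b, near-identical copies whose reads can be split uncertainly, at 351 against 116 FPKM (log2 ratio 1.59) and 712 against 258 FPKM (log2 ratio 1.46). In mitochondria the chaperonin pair Hspd1 and Hspe1 was at 361 against 28.6 FPKM (log2 ratio 3.61) and 231 against 40.2 FPKM (log2 ratio 2.49). Of 17 heat shock genes 14 were higher and 0 lower (median 1.93). In the endoplasmic reticulum the response was uneven: Hspa5 (BiP) was at 1124 against 339 FPKM (log2 ratio 1.73), Dnajb9 at 45.8 against 5.35 FPKM (log2 ratio 2.88), Herpud1 at 216 against 46.1 FPKM (log2 ratio 2.21) and Xbp1 at 384 against 114 FPKM (log2 ratio 1.74), while Calr, Pdia4 and Creld2 were at 108 against 108 FPKM (log2 ratio 0.00), 71.8 against 79.6 FPKM (log2 ratio -0.15) and 34.3 against 44.9 FPKM (log2 ratio -0.38). Of the translation-controlled factor ATF4 and genes under it, Atf4 was at 222 against 31.2 FPKM (log2 ratio 2.80), Chac1 at 42.1 against 0.681 FPKM (log2 ratio 4.68), Sesn2 at 75.4 against 5.19 FPKM (log2 ratio 3.63) and Trib3 at 25.8 against 3.30 FPKM (log2 ratio 2.64). The list had 12 higher and 0 lower of 18 (median 1.58), and Chac1 passed the filter only through the library where it is high.

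Genes of amino acid supply, many of them under ATF4 control, were higher. The exchanger of large neutral amino acids is formed by Slc7a5 and Slc3a2, at 148 against 3.07 FPKM (log2 ratio 5.19) and 634 against 20.5 FPKM (log2 ratio 4.88). Asparagine synthetase, Asns, was at 99.6 against 3.47 FPKM (log2 ratio 4.49), and the 3 enzymes of serine synthesis, Phgdh, Psat1 and Psph, were at 66.7 against 14.03 FPKM (log2 ratio 2.17), 91.5 against 2.91 FPKM (log2 ratio 4.56) and 43.1 against 4.20 FPKM (log2 ratio 3.08). The carriers Slc38a2 and Slc7a1 were at 245 against 27.6 FPKM (log2 ratio 3.11) and 20.6 against 2.02 FPKM (log2 ratio 2.84). Pycr1 of proline synthesis, the amino acid that collagen needs most beside glycine, was at 10.6 against 15.04 FPKM (log2 ratio -0.47). Of 19 measured genes 14 were higher and 0 lower (median 2.02).

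The machinery that makes ribosomes and starts translation was higher across nearly all members. Among cytosolic tRNA synthetases 11 of 13 were higher (median 2.46), from Nars at 299 against 24.8 FPKM (log2 ratio 3.54) to Kars at 56.6 against 22.9 FPKM (log2 ratio 1.27), and only Dars and Qars lay within 2-fold, at 24.6 against 18.6 FPKM (log2 ratio 0.38) and 12.5 against 13.6 FPKM (log2 ratio -0.11). Of ribosome biogenesis genes 25 of 27 were higher (median 2.44), including the nucleolar helicase Ddx21 at 105 against 5.90 FPKM (log2 ratio 3.94), Rrs1 at 177 against 11.5 FPKM (log2 ratio 3.84), the rRNA methyltransferase Fbl (fibrillarin) at 198 against 22.3 FPKM (log2 ratio 3.10) and Npm1 (nucleophosmin) at 514 against 125 FPKM (log2 ratio 2.03). Nop10 and Ubtf, the latter a factor of rRNA gene transcription, lay within 2-fold at 37.1 against 36.3 FPKM (log2 ratio 0.03) and 29.0 against 21.5 FPKM (log2 ratio 0.41). Translation factors had 11 of 14 higher (median 2.21), among them the start codon factor Eif1 at 1029 against 212 FPKM (log2 ratio 2.27), Eif5a at 893 against 201 FPKM (log2 ratio 2.15) and the cap-binding inhibitor Eif4ebp1 at 237 against 35.6 FPKM (log2 ratio 2.70). The ribosomal proteins themselves moved by less and very evenly: all 27 measured genes lay between 0.31 (Rpl22, at 44.5 against 35.7 FPKM (log2 ratio 0.31)) and 0.99 (Rpl8, at 576 against 289 FPKM (log2 ratio 0.99)) and none passed 2-fold, with a median of 0.74, or 0.11 on the TPM scale.

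Splicing factors and the proteasome lay between these sets. Of 23 splicing genes 16 were higher and 0 lower (median 1.24, TPM 10 higher and 0 lower), led by Hnrnpf at 418 against 78.0 FPKM (log2 ratio 2.41) and Srsf7 at 94.0 against 19.3 FPKM (log2 ratio 2.23), with Sf3b2 at the other end at 43.3 against 46.9 FPKM (log2 ratio -0.12). Of 30 proteasome genes 12 were higher and 0 lower (median 0.87), while 39.0% of named protein coding entries with 20 to 100 FPKM were higher. On the TPM scale the proteasome list had 0 higher and 2 lower with a median of 0.25. The ATPase Psmc6 and the lid subunit Psmd11 led at 70.8 against 23.4 FPKM (log2 ratio 1.56) and 76.2 against 27.7 FPKM (log2 ratio 1.43). Psmb9 and Psmb10, catalytic subunits of the interferon-inducible immunoproteasome, were the lowest, at 9.07 against 14.4 FPKM (log2 ratio -0.61) and 13.7 against 20.3 FPKM (log2 ratio -0.53). Psmb8, its remaining catalytic subunit, did not share this direction (log2 ratio 0.42).

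**Figure D4:**
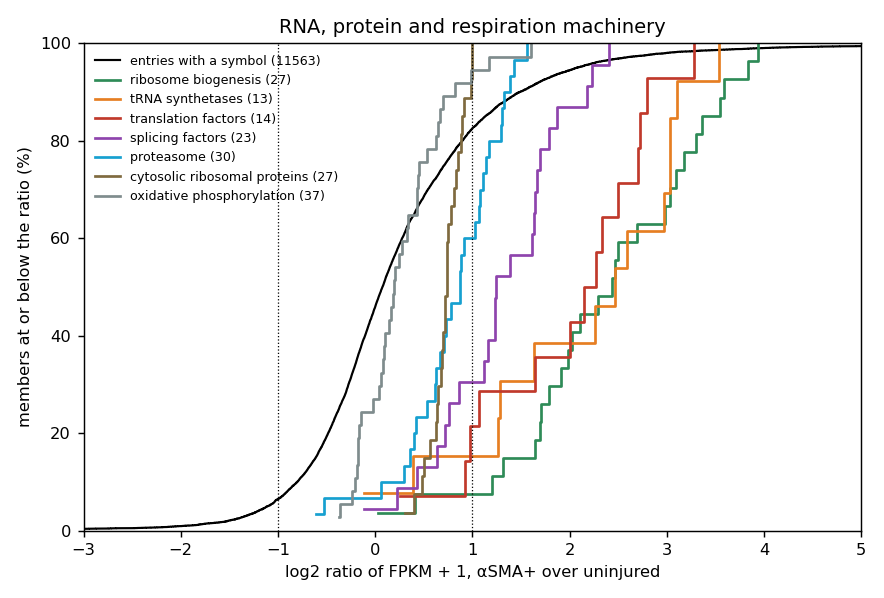
Cumulative share of measured members (%) at or below each log2 ratio of FPKM + 1, αSMA-labelled over uninjured-labelled, for 7 lists and for all entries with a symbol (black), with dotted lines at 2-fold. Ribosome biogenesis, tRNA synthetases and translation factors lie far to the right of all entries (medians 2.44, 2.46 and 2.21), ribosomal proteins rise steeply just below 1, and oxidative phosphorylation is nearest to all entries (median 0.19).

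Energy metabolism genes differed by pathway and by member. The glucose transporter gene Slc2a1, with a small RNA gene inside its entry, was at 97.0 against 4.76 FPKM (log2 ratio 4.09) and the first glycolytic enzyme Hk2 at 153 against 2.38 FPKM (log2 ratio 5.51). The lactate carrier gene Slc16a1 was at 12.4 against 2.37 FPKM (log2 ratio 1.99) and Pgk1, at the bound, at 80.8 against 39.2 FPKM (log2 ratio 1.02). Most other glycolytic genes lay within 2-fold, such as Aldoa at 369 against 204 FPKM (log2 ratio 0.85), Gapdh at 140.3 against 92.0 FPKM (log2 ratio 0.60), Pkm at 212 against 145 FPKM (log2 ratio 0.55) and Eno1 at 60.7 against 64.0 FPKM (log2 ratio -0.08). Of 15 measured genes 4 were higher and 0 lower, and the median of 0.60 became -0.02 on the TPM scale. Of the hypoxia-responsive genes Ddit4, an inhibitor of mTORC1, was at 71.6 against 4.52 FPKM (log2 ratio 3.72) and Adm (adrenomedullin) at 77.7 against 18.2 FPKM (log2 ratio 2.03), whereas Bnip3, Egln3 and Pdk1 were equal, at 19.97 against 19.2 FPKM (log2 ratio 0.06), 1.08 against 1.06 FPKM (log2 ratio 0.01) and 5.58 against 5.60 FPKM (log2 ratio 0.00). Nuclear genes of oxidative phosphorylation were close to level, 2 of 37 being higher (Cycs at 43.2 against 13.5 FPKM (log2 ratio 1.61) and Cox5a at 133 against 58.6 FPKM (log2 ratio 1.17)) with a median of 0.19, or -0.43 on the TPM scale. The genes of the mitochondrial genome with a symbol here were higher, at 5225 against 1055 FPKM (log2 ratio 2.31) for mt-Co1, 3759 against 1006 FPKM (log2 ratio 1.90) for mt-Co2 and 991 against 278 FPKM (log2 ratio 1.83) for mt-Nd4. Of 19 lipid handling genes 9 were higher, while 39.0% of named protein coding entries with 20 to 100 FPKM in the higher library were higher. On the TPM scale the list had 7 higher and 2 lower. Among the 9 were Acsl4 at 108 against 4.74 FPKM (log2 ratio 4.25), the fatty acid carrier Cd36 at 137 against 8.72 FPKM (log2 ratio 3.83), Fabp4 at 445 against 56.3 FPKM (log2 ratio 2.96) and Apoe at 4140 against 1504 FPKM (log2 ratio 1.46), while Acsl1 and Lpl were at 6.06 against 2.84 FPKM (log2 ratio 0.88) and 129.6 against 82.4 FPKM (log2 ratio 0.65). In cholesterol synthesis 3 of 14 genes were higher and 1 lower (TPM 1 higher and 3 lower).

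Most cell cycle genes lay within 2-fold, and the list had median levels of 3.97 against 3.60 FPKM. Of 28 measured cell cycle genes 3 were higher (Cdkn1a, Pcna and Cdt1) and 1 was lower (Cdkn2b), with a median of 0.02. Cdk1, which drives mitosis, was at 0.437 and 1.14 FPKM, and the interphase kinase Cdk4 at 55.7 against 55.4 FPKM (log2 ratio 0.01). Cdkn1a, the p21 inhibitor and p53 target, was at 136 against 32.6 FPKM (log2 ratio 2.03), the replication clamp Pcna at 50.4 against 13.7 FPKM (log2 ratio 1.80) and Cdkn2b, the p15 inhibitor that TGFβ induces, at 4.43 against 12.1 FPKM (log2 ratio -1.27). Among p53 targets the feedback gene Mdm2 was at 76.2 against 12.6 FPKM (log2 ratio 2.50) and the stress genes Plk2 and Gadd45b at 129 against 20.9 FPKM (log2 ratio 2.57) and 216 against 36.5 FPKM (log2 ratio 2.53), while Phlda3 and Sesn1 were lower at 29.6 against 128 FPKM (log2 ratio -2.07) and 5.06 against 17.2 FPKM (log2 ratio -1.58). The p53 list had 7 higher and 2 lower of 15, while 39.0% of named protein coding entries with 20 to 100 FPKM in the higher library were higher.

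Other innate pathways did not share the size of the chemokine difference. In the interferon list 3 of 20 genes were higher (median 0.35, TPM -0.08), Irf1, which NF-κB also induces, at 60.8 against 16.02 FPKM (log2 ratio 1.86), Rsad2 at 15.96 against 3.48 FPKM (log2 ratio 1.92), and Isg15, at the bound, at 49.3 against 24.1 FPKM (log2 ratio 1.002). Ifit3 was at 7.58 against 13.2 FPKM (log2 ratio -0.73). In the complement list the higher genes were those of macrophages and phagocyte receptors, C1qa, C1qb, C1qc, C3ar1 and C5ar1, with C1qb at 258 against 15.1 FPKM (log2 ratio 4.01) and C5ar1 at 50.5 against 1.13 FPKM (log2 ratio 4.59), together with C7 at 101 against 19.2 FPKM (log2 ratio 2.33). Genes of the classical pathway and its control that fibroblasts express, C1s1, C1ra and Serping1, were at 82.6 against 70.4 FPKM (log2 ratio 0.23), 43.9 against 42.7 FPKM (log2 ratio 0.04) and 913 against 632 FPKM (log2 ratio 0.53). Acute phase genes were level or lower despite Il6, the inducer of this response in liver, with Saa3 at 41.6 against 75.6 FPKM (log2 ratio -0.85), Serpina3n at 45.6 against 84.7 FPKM (log2 ratio -0.88), Lcn2 at 3.05 against 2.46 FPKM (log2 ratio 0.23) and Hp (haptoglobin) at 4.12 against 23.2 FPKM (log2 ratio -2.24), and 0 of 7 measured genes were higher.

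Adhesion genes included some large single differences. Gja1, the gap junction gene connexin 43, was at 353 against 12.5 FPKM (log2 ratio 4.71), the vitronectin and TGFβ-binding integrin chains Itgav and Itgb3 at 63.0 against 21.3 FPKM (log2 ratio 1.52) and 9.39 against 2.48 FPKM (log2 ratio 1.58), and the leukocyte integrin Itgb2 at 46.3 against 4.30 FPKM (log2 ratio 3.16). Itgb5, another partner of Itgav, was lower at 135 against 364 FPKM (log2 ratio -1.43), as were Itga11, a collagen receptor of myofibroblasts, at 12.5 against 26.3 FPKM (log2 ratio -1.02) and the fibroblast cadherin Cdh11, with a small RNA gene inside its entry, at 6.43 against 15.99 FPKM (log2 ratio -1.19). The fibronectin receptor gene Itga5 lies at a shared locus, where the entry detected in both libraries was at 525 against 19.4 FPKM (log2 ratio 4.69).

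RNA of other heart cell types was higher in the αSMA-labelled library, by the most for macrophage and monocyte markers. Of 21 measured macrophage and monocyte markers 18 were higher (median 3.09), or 13 higher and 1 lower by TPM. Among the 18 were Lyz2 at 555 against 28.4 FPKM (log2 ratio 4.24), Adgre1 (F4/80) at 36.6 against 1.53 FPKM (log2 ratio 3.89), Cd68 at 98.2 against 6.63 FPKM (log2 ratio 3.70) and Ptprc, which encodes CD45, at 10.7 against 3.28 FPKM (log2 ratio 1.45). None of the macrophage markers was listed at 0 in either library. Ccr2 and Cx3cr1 were at 2.67 against 3.28 FPKM (log2 ratio -0.22) and 1.84 against 3.11 FPKM (log2 ratio -0.53). Of 18 endothelial markers 14 were higher and 0 lower (median 1.91), Pecam1, which encodes CD31, at 49.5 against 8.62 FPKM (log2 ratio 2.39), Cdh5 at 13.3 against 2.78 FPKM (log2 ratio 1.92) and Cldn5 at 55.2 against 4.24 FPKM (log2 ratio 3.42), and the list summed to 534 FPKM against 141 FPKM. Of 12 cardiomyocyte markers 8 were higher (5 by TPM), Tnnt2 at 32.9 against 11.1 FPKM (log2 ratio 1.49) and Tnni3 at 21.96 against 5.97 FPKM (log2 ratio 1.72), with a summed level of 231 FPKM against 68.8 FPKM. Tnnc1 was at 4.52 FPKM and listed at 0 in the uninjured-labelled library. Neutrophil, lymphocyte and erythroid markers stayed low, S100a8 at 10.9 against 0.969 FPKM (log2 ratio 2.59), Cd79a at 8.74 against 1.92 FPKM (log2 ratio 1.74), Cd3d at 4.54 against 4.06 FPKM (log2 ratio 0.13) and Hbb-bs at 5.59 against 6.54 FPKM (log2 ratio -0.19), and mesothelial markers were level or lower, Msln at 4.54 against 10.99 FPKM (log2 ratio -1.11). The fibroblast genes Gsn and Dcn stood above every one of these markers in both libraries, and the part of the other cells in the differences was not tested.

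**Figure D5:**
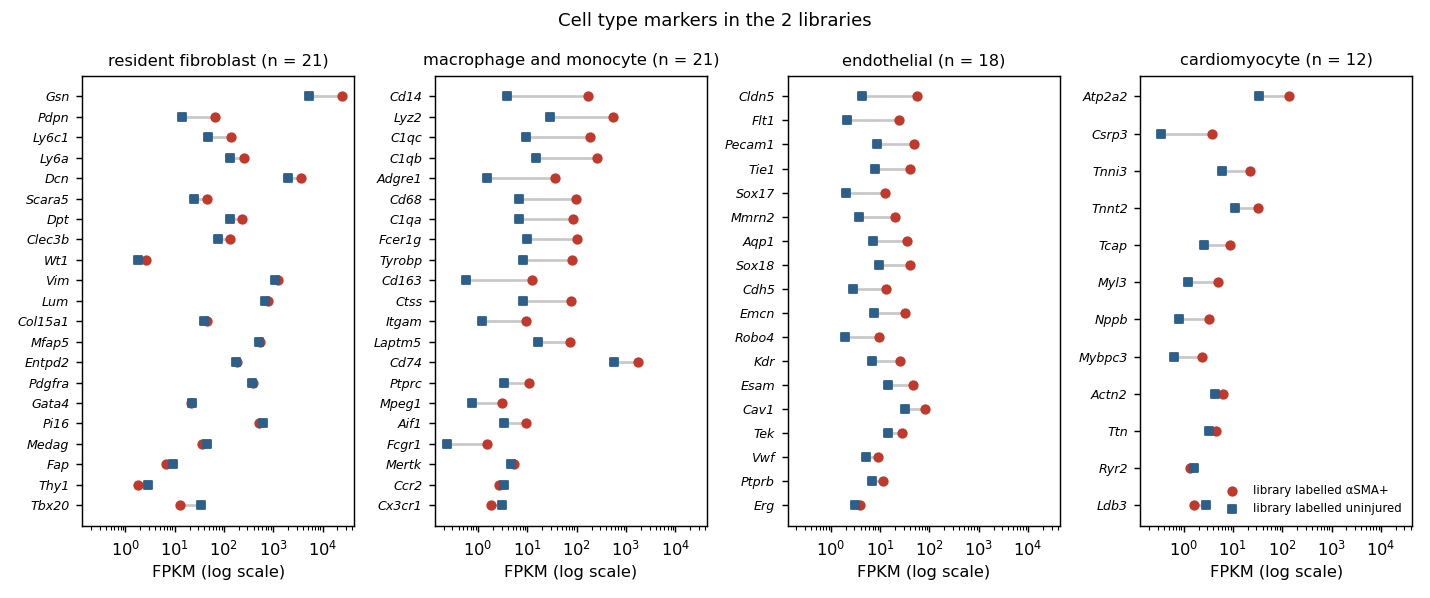
FPKM on a log scale in the αSMA-labelled library (red circles) and the uninjured-labelled library (blue squares) for the measured markers of 4 cell types, ordered by log2 ratio. Fibroblast markers such as Pdgfra, Lum and Vim overlap, while most macrophage, endothelial and cardiomyocyte markers lie higher in the αSMA-labelled library.

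The most abundant entries were largely shared. Mir6236, an annotated microRNA whose mRNA-library signal need not be the mature microRNA, was highest in both, at 40891 against 29533 FPKM (log2 ratio 0.47), followed by Gsn. Then came Ftl1, Cxcl1 and Ccl2 in the αSMA-labelled library, and in the uninjured-labelled library Mgp (matrix Gla protein), at 2963 against 3972 FPKM (log2 ratio -0.42), Sparc, and Lars2, the mitochondrial leucyl-tRNA synthetase gene, at 3037 against 2855 FPKM (log2 ratio 0.09). Among named protein coding genes below 0.1 FPKM in the uninjured-labelled library, the most abundant in the other were, beside Tnf, Csf3 and Tnnc1, Cyp1a1, the target of the aryl hydrocarbon receptor, at 5.66 and 0.0856 FPKM, and Ttll8, at 4.03 and 0.0871 FPKM. In the other direction Defb38, Galp, Ropn1l and Gsc were listed at 0 in the αSMA-labelled library, with 6.69, 6.65, 2.50 and 1.60 FPKM in the other, and Gm38392 was at 0.0749 and 3.55 FPKM.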

How the data were processed

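RNA of 3 mouse heart fibroblast groups was sequenced, 1 library per group, and 2 libraries are compared here. Per the labels, poly(A) libraries were made with a stranded TruSeq kit and read as single reads of 50 bases, while the methods of the paper give a paired layout. The authors quantified genes on GRCm38 with Cuffdiff, whose version is not given in the sources used here, and deposited FPKM in 3 tables of 31930 entries, each scaled for its own pair. The deposited tables also hold log2 fold changes, a test score and p-values and q-values of the authors' own comparisons, which were not used. Only the table that pairs the libraries was used, except for a ratio taken through the third library. The offset of 0.001 in each deposited FPKM was removed, and 2 entries marked as failed estimates (Actr3 and Septin7) were left out. No column of another sample was present.

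Symbols were assigned by position, from RefSeq GRCm38.p6 and then GENCODE M21, to entries alone at their locus that overlapped a gene by at least 0.8 of the union, with the next gene under 0.7. This gave 17820 entries a symbol and left 8265 at shared loci, of which only entries named as such are given, by entry. A small RNA gene lay inside 648 of the entries with a symbol, in the same orientation. Ratios are log2 of FPKM + 1 among entries with at least 1 FPKM in either library, and a member that passed through the library where it is high had to differ. Read numbers were not part of the tables, and counting error is not given. The ratio script was tested on simulated data. Motifs were searched in RefSeq sequences. The named genes were Acta2, S100a4, the 15 highest and 15 lowest ratios (protein coding, no small RNA gene, at least 10 FPKM in either and 1 FPKM in both), the top 5 of each library by FPKM, the 5 most abundant protein coding genes at under 0.1 FPKM in the other library, every gene on a short list (25 genes or fewer), and from longer lists the top 3, the bottom 3 and the 4 with the most FPKM. Some genes that this rule takes in are not reported here. The comparison, the lists and the rules were chosen with earlier results of these data known. Alternatives were pseudocounts of 0.1 and 5 FPKM, other filters, scales and thresholds. Scripts ran in Python 3.11.15 (NumPy 2.4.6, pandas 2.3.3), and matplotlib 3.10.9 drew the plots.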

Additional observations from a re-analysis of the deposited data

How the results depend on the processing

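Against 2923 higher and 1223 lower entries, a pseudocount of 0.1 FPKM gave 3518 and 2010, one of 5 FPKM 1992 and 498, a 4-fold threshold 998 and 277, and named protein coding entries alone 1930 and 674, the last pair testing smaller sets by construction. The TPM scale turned the split to 1744 higher and 3884 lower (median log2 ratio -0.48), and the ratio through the FSP1 library gave 2312 and 1808 (median -0.16), so the balance of directions over all entries depends on the scale. Lists with a median at least 2-fold higher numbered 20 and ranged from 16 (TPM) to 25 (5 FPKM in either library). Lists with a median at least 2-fold lower numbered 2, and 5 on the TPM scale. The 15 highest and the 15 lowest genes all stayed past 2-fold under the 8 alternatives run on them. They were picked for extreme ratios in these data, and a filter cannot change the ratio of a gene, so this outcome says little about their stability. No list median or named gene past 2-fold changed sign. Requiring 1 FPKM in both libraries brought the CXC and colony factor median to 1.61, and no filter brought the hyaluronan median to 1.33, since both lists hold genes near 0 in 1 or both libraries. No paired analysis was possible because each group is 1 library.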

Other observations

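Several genes outside the lists had ratios that followed the 15 highest and are given here as chosen after their values were seen. Gch1, the first enzyme of tetrahydrobiopterin synthesis, was at 44.0 against 1.06 FPKM (log2 ratio 4.45). The chromatin protein gene Hmga1 was at 249.7 against 6.56 FPKM (log2 ratio 5.05), and the small MAF gene Maff at 115 against 3.94 FPKM (log2 ratio 4.56). The myeloid receptors Lilrb4a and Lilr4b, near-identical neighbors whose reads can be split uncertainly, were at 142 against 2.92 FPKM (log2 ratio 5.19) and 177 against 5.77 FPKM (log2 ratio 4.71), and Wfdc17, a macrophage gene beside the Ccl3 and Ccl4 cluster, at 121 against 3.94 FPKM (log2 ratio 4.62).

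Genes just outside the 15 lowest were chosen in the same way. Tmem119, which is known from osteoblasts and microglia, was at 15.7 against 105 FPKM (log2 ratio -2.66), the parathyroid hormone receptor Pth1r at 5.12 against 33.7 FPKM (log2 ratio -2.50), the growth factor pleiotrophin, Ptn, at 6.14 against 37.1 FPKM (log2 ratio -2.42), the chondroitin sulfotransferase Chst12 at 5.54 against 35.0 FPKM (log2 ratio -2.46), the WNT feedback gene Nkd2 at 4.67 against 29.6 FPKM (log2 ratio -2.43) and Osr1, a transcription factor of mesenchymal progenitors, at 6.05 against 34.8 FPKM (log2 ratio -2.34).

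The FSP1-labelled library, of GFP+ CD45- CD31- cells of the infarct, was set against the same uninjured-labelled library in a separately scaled table, so the values share that control and are given side by side only. Its log2 ratios over the uninjured-labelled library were 5.57 for Cxcl2, 4.03 for Ccl2, 3.83 for Il6 and 3.21 for Hmox1, where the αSMA-labelled library had 8.87, 8.19, 7.92 and 8.26. For matrix genes they were -3.13 for Eln, -1.55 for Cthrc1, -1.19 for Col1a1 and -1.08 for Postn, beside -3.88, -5.90, -2.68 and -2.55. For Acta2 the ratio was 1.54 beside -0.30, and for Ddx21 of ribosome biogenesis 0.90 beside 3.94. For the proteoglycan genes Dcn and Lum and the microfibril gene Mfap4 the ratios were -1.24, -1.51 and -2.58, beside 0.89, 0.18 and -0.95, so matrix genes did not all order the same way. The macrophage marker Adgre1 and the endothelial marker Pecam1 were at 4.14 and 4.04, beside 3.89 and 2.39, although CD45+ and CD31+ cells were excluded from the FSP1 sort. For Pdgfra the ratio was -4.44 beside 0.03.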
